A study of Ovis aries with 40 samples.

Results

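The 7 genes described here encode the 3 subunits of the epithelial sodium channel ENaC (SCNN1A, SCNN1B and SCNN1G), the beta 1 subunit of the sodium pump (ATP1B1) and the water channels aquaporin 1, aquaporin 3 and aquaporin 4 (AQP1, AQP3 and AQP4). They were chosen by gene symbol, for their part in the change from secretion to absorption of lung liquid, out of 24478 genes counted. All 7 passed the filter on low counts in every comparison. Bulk RNA was sequenced from proximal and distal lung of wild-type (WT) and CFTR-/- (CF) American Romney sheep. Fetuses were sampled on days 65, 80, 100 and 120, and term animals on a day the labels give as 147. There were 2 libraries for each of 20 conditions, 40 in all. WT animals were bred. CF animals came from somatic cell nuclear transfer with 1 line of male fetal fibroblasts in which exon 2 of CFTR had been targeted, so that genotype and cloning cannot be told apart. The CF animals were thus all male and shared the genome of 1 line. The study does not state the sex of the WT animals, so sex may differ with genotype too. WT term animals were born naturally and lived for a recorded time, so that birth and gestational age cannot be told apart at term. How CF term animals were born is not given in the sources used here. Ewes carrying animals of either genotype were given a prostaglandin analogue to synchronize estrus, and the ewes that received CF embryos also had vaginal sponges and a different dose, so that this too differed with genotype. By the labels, the proximal and distal library of the same number came from the same animal. Both WT libraries at 100 days carry 1 animal label, and WT replicate 2 at 65 days shares its label with CF replicate 2 at 100 days.

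Before birth the lung epithelium secretes liquid. Chloride leaves the cells through channels such as CFTR in the apical membrane, sodium and water follow, and the liquid keeps the lung expanded while it grows. Towards birth the epithelium turns to absorption: sodium enters from the lumen through ENaC, which needs all of its subunits for full activity, and the Na+/K+-ATPase pumps it out on the basolateral side. The pump is made of a catalytic alpha and a regulatory beta subunit. Glucocorticoids, adrenergic signalling and thyroid hormone are known to raise this transport in fetal sheep. Water follows the salt, in part through aquaporins, of which AQP1 is known from lung endothelium, AQP3 from airway basal cells and AQP4 from the basolateral membrane of airway epithelium.

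Levels are given as CPM, the counts on a gene per 1000000 counts in its library, after scaling by TMM factors over the 40 libraries. The sum of counts per library was 24670355 to 43700012 in WT (n = 16) and 85773994 to 103139483 in CF before term (n = 16), and 115937437 to 126749480 in WT (n = 4) and 117316905 to 119451372 in CF at term (n = 4). Before term the CF libraries were thus the deeper ones, and each genotype difference was also computed with counts thinned to equal depth. Differences are on the log2 scale with the standard error (SE) of edgeR's quasi-likelihood fit, from 2 libraries per condition. A gene was called where the p adjusted by Benjamini-Hochberg over all genes tested was 0.05 or less, and the call is edgeR's where no other tool is named. CFTR, the targeted gene, had 9.58 to 43.8 CPM in WT and 3.65 to 34.9 CPM in CF libraries, and both CF libraries were below both WT libraries in 10 of 10 pairs of region and time point. At term it was -1.43 ± 0.35 (SE, adjusted p = 0.0282) in CF relative to WT proximal lung. The transcript was thus still counted in CF. CF proximal lung replicate 2 at 120 days stood apart from its replicate. Its summed airway basal markers were 323 against 10.4 CPM, its airway secretory and ciliated markers 3785 against 166 CPM and its alveolar type 2 markers 19793 against 6844 CPM. A value of a member that changed its call or moved by over 1.5 times without this library is given both ways. The labels call the samples lung epithelial tissue, and markers of other cells were present too: summed epithelial markers had 566 to 1154 and endothelial markers 965 to 2838 CPM before term. In bulk tissue, fewer cells of a type and less RNA per cell cannot be told apart.

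By position in Oar_v4.0, SCNN1A lies at chr3:207717531-207743132, plus strand. SCNN1B (chr24:21058908-21085025, plus strand) and SCNN1G (chr24:20899093-20928340, plus strand) lie on the same chromosome. ATP1B1 lies at chr12:34812765-34842001, plus strand, AQP1 at chr4:65363138-65374815, minus strand, AQP3 at chr2:37540127-37546508, plus strand and AQP4 at chr23:30281057-30295657, plus strand. SCNN1A shares 136 exon bases with LOC106991088 and ATP1B1 shares 146 with NME7, both on the opposite strand. Whether the counting used strand is not given, so reads in these bases cannot be told apart. Divided by the length of the counted exons, the levels of the 7 genes ran in a different order at 65 days and at term. At 65 days ATP1B1 led in WT with 91.8 to 107 CPM per kb (n = 4, both regions). AQP1 had 5.32 to 13.7 CPM per kb, within the range of AQP4 (0.446 to 19.2), and AQP3 had 0.226 to 2.63. SCNN1B (0.585 to 1.02 CPM per kb) overlapped SCNN1A (0.211 to 0.638), which overlapped SCNN1G (0.0483 to 0.449), while SCNN1B and SCNN1G did not overlap. At term AQP1 led in WT with 154 to 227 CPM per kb. SCNN1B (69.8 to 103) and ATP1B1 (67.7 to 95.8 CPM per kb) overlapped below it. SCNN1A (23.2 to 36.99), SCNN1G (16.6 to 25.7), AQP4 (9.802 to 19.9) and AQP3 (3.35 to 14.1 CPM per kb) followed, each overlapping the next.

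The 3 ENaC subunit genes were barely expressed at 65 days and rose by term in both genotypes and regions. Between 65 days and term, SCNN1A, SCNN1B and SCNN1G rose by 5.91 to 6.77 on the log2 scale in WT and by 4.04 to 5.17 in CF. All 3 were called in each of the 4 courses of genotype and region, where 23.5% (WT proximal), 21.8% (WT distal), 5.78% (CF proximal) and 16.1% (CF distal) of all genes rose. The call of SCNN1A in CF proximal lung was lost without either replicate at 65 days or replicate 2 at term, with adjusted p values of 0.112 to 0.177. That of SCNN1B was lost without either replicate at 65 days, with adjusted p values of 0.0712 to 0.087. That of SCNN1G was lost without either replicate at 65 days, with adjusted p values of 0.0664 to 0.0722. Over the 5 time points, 5 of the 7 members were called in WT proximal lung (background 40.8% of all genes tested) and 5 in WT distal lung (40.4%). In CF, 3 were called in proximal (5.36%) and 6 in distal lung (33.9%). SCNN1B and SCNN1G were called in each course, and SCNN1A in every course but CF proximal lung, where its adjusted p was 0.0539. There SCNN1A was called by DESeq2 (adjusted p = 8.66e-07) and by edgeR with all 40 libraries in 1 fit (1.50e-05) or with no filter on low counts (0.0397), and AQP1 by DESeq2 (6.43e-05) and by the fit of all 40 libraries (1.41e-04). The fit of all 40 libraries has no term for the animal, although proximal and distal libraries of the same number share an animal by the labels. Without the CF proximal replicate that stood apart, 6 of the 7 members were called in CF proximal lung, with SCNN1A (adjusted p = 0.00194), AQP1 (0.00521) and AQP3 (0.0381) added. The count of 3 was 7 without the other replicate at 120 days, 1 without either replicate at 65 days and 0 without replicate 2 at term. The share of 5.36% belongs to the fit with all libraries of the course. That of the fits with 1 library left out is not given here, so these counts have no background beside them.

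SCNN1A encodes the alpha subunit, which is able to form a channel without the others. SCNN1A in WT proximal lung had 1.66 and 0.549 CPM at 65 days, 2.42 and 3.02 at 80 days, 3.601 and 3.42 at 100 days, 15.8 and 10.2 at 120 days and 60.3 and 96.02 at term. SCNN1A in WT distal lung had 1.504 and 0.850 CPM at 65 days, 1.597 and 2.91 at 80 days, 2.68 and 2.68 at 100 days, 14.2 and 11.7 at 120 days and 72.1 and 73.4 at term. Both WT courses climbed in steps: the libraries at 120 days were above all earlier ones, and those at term above all before term. From 100 to 120 days SCNN1A rose by 1.91 ± 0.41 (SE, adjusted p = 0.0472) in WT proximal lung, where 1.39% of genes rose. The rise in WT distal lung was 2.27 ± 0.31 (SE, adjusted p = 0.0109), where 1.34% of genes rose. Both calls used the 2 libraries with 1 animal label at 100 days, and with these summed into 1 library the adjusted p was 0.248 in proximal and 0.142 in distal lung. With all 40 libraries in 1 fit the adjusted p was 0.217 in proximal and 0.0909 in distal lung. The proximal call was lost without either replicate at 80 days, either replicate at 100 days or either replicate at 120 days, with adjusted p values of 0.0707 to 0.27. The distal call was lost without either replicate at 100 days or replicate 1 at 120 days, with adjusted p values of 0.0804 to 0.15. The later rise, to term, was 2.58 ± 0.40 (SE, adjusted p = 0.00247) in proximal and 2.48 ± 0.30 (SE, adjusted p = 0.00135) in distal WT lung. SCNN1A in CF proximal lung had 1.86 and 1.65 CPM at 65 days, 1.71 and 2.44 at 80 days, 5.11 and 3.02 at 100 days, 16.03 and 1.93 at 120 days and 24.996 and 43.1 at term. SCNN1A in CF distal lung had 1.24 and 0.479 CPM at 65 days, 2.62 and 1.62 at 80 days, 4.53 and 3.199 at 100 days, 16.8 and 8.32 at 120 days and 33.03 and 27.5 at term. Up to 120 days the genotypes overlapped in each region and time point except in distal lung at 100 days, where both CF libraries were the higher, as for 37.4% of all genes. At term both CF libraries were below both WT libraries in each region, as for 29.7% of genes in proximal and 25.9% in distal lung, and edgeR called the difference in neither. From 120 days to term the difference was 1.89 ± 0.84 (SE, adjusted p = 0.34) in CF proximal and 1.25 ± 0.50 (SE, adjusted p = 0.0951) in CF distal lung, and neither was called by edgeR. DESeq2 called the distal difference, at 1.30 (adjusted p = 0.0319), and edgeR with all 40 libraries in 1 fit called the proximal one, at 1.92 (adjusted p = 0.0445). Without the CF proximal replicate that stood apart, the proximal difference was 1.05 (adjusted p = 0.24). With replicate number as a block, the distal difference was called at 1.36 (adjusted p = 0.0162), and with counts thinned to equal depth it had an adjusted p of 0.043.

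SCNN1B encodes the beta subunit. SCNN1B in WT proximal lung had 2.63 and 2.03 CPM at 65 days, 3.44 and 4.91 at 80 days, 15.7 and 14.5 at 100 days, 21.6 and 17.9 at 120 days and 257 and 242 at term. SCNN1B in WT distal lung had 3.55 and 2.304 CPM at 65 days, 3.92 and 4.45 at 80 days, 13.9 and 11.04 at 100 days, 12.2 and 23.8 at 120 days and 291 and 357 at term. In WT, SCNN1B was higher at 100 days than at 80 days in every library, and higher at term than at any earlier time. From 80 to 100 days the rise was called in WT proximal lung, at 1.83 ± 0.19 (SE, adjusted p = 0.00292), where 1.27% of genes rose. In WT distal lung the same difference was 1.57 ± 0.32 (SE, adjusted p = 0.0721) and was not called by edgeR, while DESeq2 called it at 1.58 (adjusted p = 5.73e-05), as did edgeR with no filter on low counts (adjusted p = 0.0432). The rise from 120 days to term was 3.65 ± 0.18 (SE, adjusted p = 3.66e-05) in WT proximal and 4.15 ± 0.34 (SE, adjusted p = 2.71e-04) in WT distal lung. SCNN1B in CF proximal lung had 3.04 and 2.55 CPM at 65 days, 3.86 and 2.03 at 80 days, 6.55 and 14.2 at 100 days, 16.4 and 41.95 at 120 days and 37.04 and 54.5 at term. SCNN1B in CF distal lung had 2.32 and 2.02 CPM at 65 days, 2.55 and 1.77 at 80 days, 6.68 and 9.47 at 100 days, 15.8 and 21.7 at 120 days and 55.6 and 50.2 at term. The CF term libraries had 37.0 to 55.6 CPM and the WT term libraries 242 to 357 CPM. In CF proximal lung 1 of the 2 libraries at 120 days exceeded 1 of the 2 at term. From 120 days to term SCNN1B rose by 1.49 ± 0.29 (SE, adjusted p = 0.0108) in CF distal lung, and the difference of 0.61 ± 0.56 (SE, adjusted p = 0.678) in CF proximal lung was not called. The latter was 1.44 without the CF proximal replicate that stood apart (adjusted p = 0.175). The distal call was lost without replicate 1 at 120 days, with an adjusted p of 0.0678.

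SCNN1G encodes the gamma subunit. SCNN1G in WT proximal lung had 0.999 and 0.165 CPM at 65 days, 0.755 and 2.45 at 80 days, 6.18 and 4.02 at 100 days, 3.55 and 1.71 at 120 days and 60.5 and 68.8 at term. SCNN1G in WT distal lung had 1.53 and 0.165 CPM at 65 days, 1.15 and 0.984 at 80 days, 2.195 and 3.77 at 100 days, 1.57 and 2.75 at 120 days and 56.5 and 87.4 at term. Its lowest values, in WT replicate 2 at 65 days, rest on as few as 6 reads. SCNN1G in CF proximal lung had 0.756 and 1.02 CPM at 65 days, 1.18 and 0.707 at 80 days, 1.22 and 2.84 at 100 days, 3.47 and 3.25 at 120 days and 11.98 and 31.3 at term. SCNN1G in CF distal lung had 0.811 and 0.744 CPM at 65 days, 0.642 and 0.561 at 80 days, 1.39 and 1.75 at 100 days, 3.96 and 2.84 at 120 days and 15.5 and 28.5 at term. Every library before term had 6.18 CPM or less and every term library had more, so the groups did not overlap in either genotype. SCNN1G rose from 120 days to term by 4.61 ± 0.68 (SE, adjusted p = 0.00193) in WT proximal and 5.02 ± 0.73 (SE, adjusted p = 0.00257) in WT distal lung. It rose by 2.68 ± 0.39 (SE, adjusted p = 0.00462) in CF distal lung, and the difference of 2.65 ± 0.62 (SE, adjusted p = 0.125) in CF proximal lung was not called by edgeR. That difference was called by DESeq2 (adjusted p = 5.25e-04) and by edgeR with all 40 libraries in 1 fit (adjusted p = 0.0137).

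**Figure D1:**
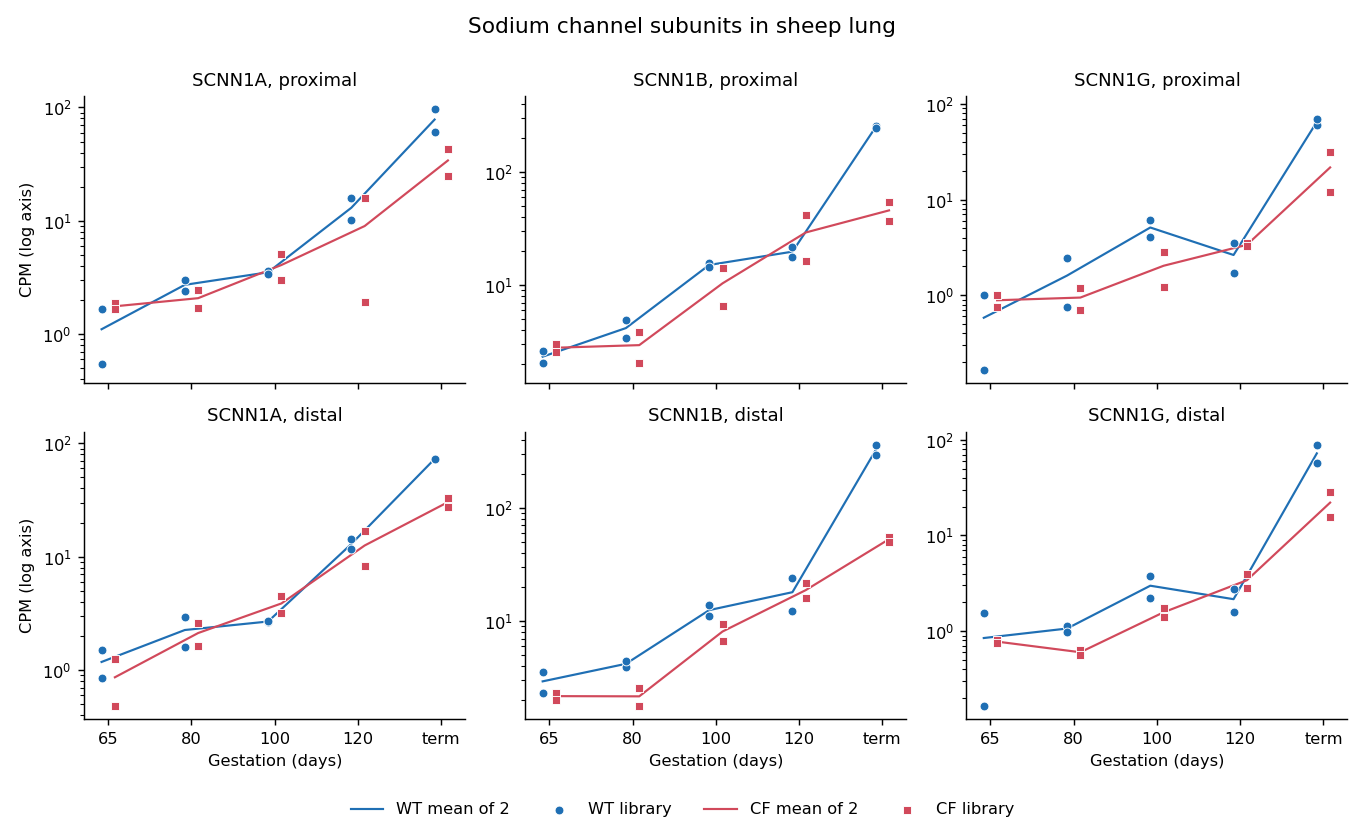
CPM of SCNN1A, SCNN1B and SCNN1G (log axis) against gestational age in days, in proximal lung (upper row) and distal lung (lower row). Circles are WT libraries, squares are CF libraries and lines join the means of 2 libraries; at term SCNN1B, the 1 of the 3 whose genotype difference was called there by edgeR, had 242 to 357 CPM in WT and 37.0 to 55.6 CPM in CF.

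From 120 days to term as a whole, 5 of the 7 members rose in WT proximal lung (13.5% of all genes rose) and 3 in WT distal lung (13.5%). In CF, 3 rose in distal lung (11.5%) and 0 in proximal lung (0.0762%). In CF proximal lung edgeR called 0 of 7 members and found 3 at an unadjusted p under 0.05, and DESeq2 called 2, SCNN1G and ATP1B1. With all 40 libraries in 1 edgeR fit 4 were called there, SCNN1A, SCNN1G, ATP1B1 and AQP1, each higher at term. The share of all genes called there in either direction moved as well, from 0.356% to 7.01% with DESeq2 and 12.4% with all 40 libraries in 1 fit. Leaving out CF proximal replicate 2 at 120 days left the count at 0, and leaving out its replicate 1 gave 3. In CF distal lung the count of 3 was 1 without replicate 1 at 120 days and 5 without replicate 1 at term. DESeq2 called 6 there, and the share of all genes called in either direction went from 23.0% to 33.8%.

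The amount of ENaC RNA and the share of each subunit in it are described without a test. Summed over the 3 genes, the level was 9.44 to 13.4 CPM per kb of exon in WT and 10.3 to 13.8 CPM per kb in CF at 120 days (n = 4 each, both regions). At term the sum was 115 to 157 CPM per kb in WT and 23.8 to 41.5 CPM per kb in CF. The genotypes thus overlapped at 120 days and did not overlap at term. SCNN1B held 54.98% to 65.6% of this sum in WT and 37.8% to 48.1% in CF at term. SCNN1A held 18.02% to 29.1% in WT and 31.7% to 40.4% in CF. SCNN1G held 12.95% to 16.4% in WT and 13.7% to 25.1% in CF. The shares of SCNN1B and SCNN1A did not overlap between genotypes at term, and those of SCNN1G did. At 120 days the share of SCNN1B was 37.2% to 56.4% in WT and 37.4% to 87.7% in CF, with the highest value in the CF proximal replicate that stood apart. In WT the share of SCNN1G was 11.3% to 23.5% at 100 days and 4.88% to 7.81% at 120 days, without overlap.

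ATP1B1, the beta subunit gene that brings the sodium pump to the cell membrane, took another course. It was high at 65 and 80 days, lowest at 120 days and lower in CF than in WT throughout. ATP1B1 in WT proximal lung had 256 and 269 CPM at 65 days, 262 and 280.3 at 80 days, 199 and 178 at 100 days, 124 and 139 at 120 days and 205 and 246 at term. ATP1B1 in WT distal lung had 235 and 274 CPM at 65 days, 249.6 and 254 at 80 days, 221 and 225 at 100 days, 137 and 143 at 120 days and 174 and 176 at term. The 4 WT libraries at 120 days were below all other WT libraries. From 100 to 120 days ATP1B1 fell in WT distal lung, at -0.67 ± 0.11 (SE, adjusted p = 0.0225), where 1.16% of genes fell. In WT proximal lung the difference was -0.50 ± 0.12 (SE, adjusted p = 0.0747) and was not called by edgeR, while DESeq2 gave an adjusted p of 0.00644. With the WT libraries at 100 days summed, the distal difference had an adjusted p of 0.243, and with all 40 libraries in 1 fit 0.0847. From 120 days to term ATP1B1 rose in WT proximal lung, by 0.77 ± 0.13 (SE, adjusted p = 0.00287), and the difference of 0.31 ± 0.11 (SE, adjusted p = 0.0779) in WT distal lung was not called by edgeR but was by DESeq2 (adjusted p = 0.0422). The distal fall from 100 days was lost without either replicate at 80 days, either replicate at 100 days or either replicate at 120 days, with adjusted p values of 0.0691 to 0.243. WT distal lung at term was below its level at 65 days, at -0.58 ± 0.11 (SE, adjusted p = 0.00362), where 21% of genes fell.

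ATP1B1 in CF proximal lung had 159 and 138 CPM at 65 days, 174 and 170.1 at 80 days, 118 and 122 at 100 days, 59.5 and 34.9 at 120 days and 104 and 119 at term. ATP1B1 in CF distal lung had 158 and 136 CPM at 65 days, 185 and 211 at 80 days, 142 and 140.4 at 100 days, 44.5 and 64.6 at 120 days and 94.4 and 108 at term. The lowest values of both CF courses were again those at 120 days. In CF distal lung ATP1B1 fell from 100 to 120 days, at -1.35 ± 0.20 (SE, adjusted p = 0.0249), where 0.4% of genes fell, and rose to term by 0.89 ± 0.20 (SE, adjusted p = 0.0173). The call of the fall was lost without either replicate at 80 days, either replicate at 100 days or replicate 1 at 120 days, with adjusted p values of 0.0595 to 0.263. The call of the rise was lost without replicate 1 at 120 days or replicate 2 at term, with adjusted p values of 0.0712 to 0.0864. In CF proximal lung the corresponding differences were -1.33 ± 0.29 (SE, adjusted p = 0.291) and 1.21 ± 0.29 (SE, adjusted p = 0.126), and neither was called by edgeR. DESeq2 called both (adjusted p = 0.0125 and 0.00971), as did edgeR with all 40 libraries in 1 fit (adjusted p = 2.33e-04 and 1.24e-04). Over the 5 time points ATP1B1 was called in CF proximal lung with an adjusted p of 0.0483, and with replicate number as a block it was not called, at 0.0953, nor with RLE size factors (0.053) or counts thinned to equal depth (0.054). The call was lost without either replicate at 65 days, either replicate at 80 days, either replicate at 100 days or either replicate at term, with adjusted p values of 0.0857 to 0.167.

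**Figure D2:**
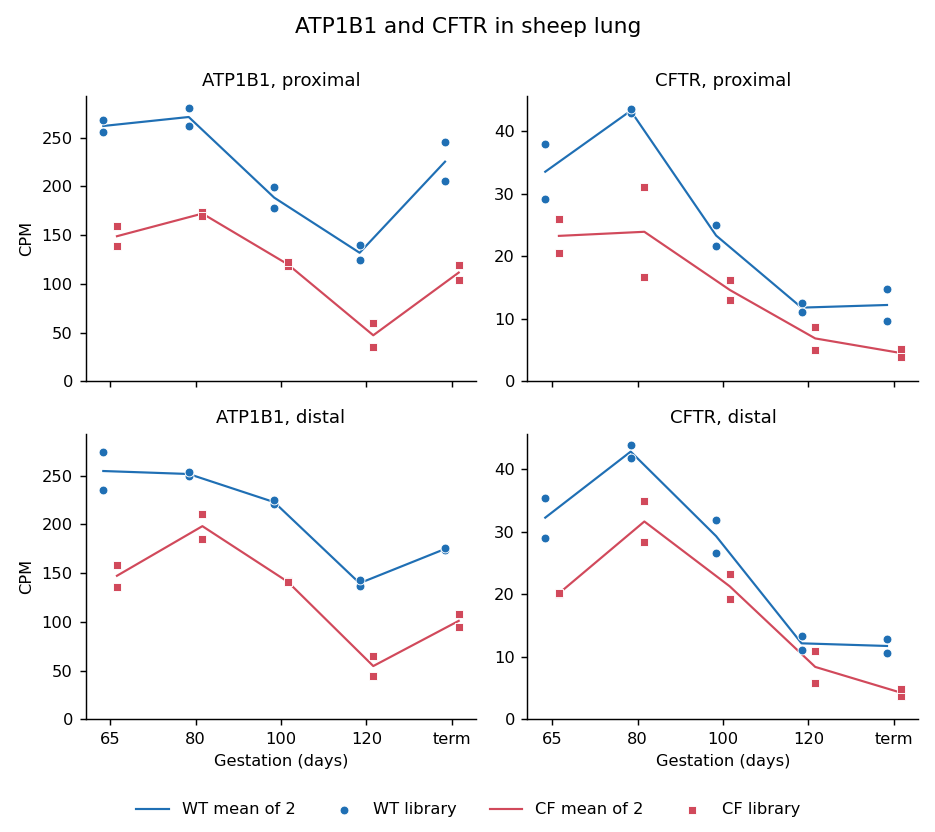
CPM (linear axis from 0) of ATP1B1 and CFTR against gestational age in days, in proximal lung (upper row) and distal lung (lower row), with circles for WT libraries, squares for CF libraries and lines through the means of 2 libraries. Both genes are lower in CF at every time point, and ATP1B1 is lowest at 120 days, at 124 to 143 CPM in WT and 34.9 to 64.6 CPM in CF.

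AQP1, the endothelial water channel, rose between 65 days and term in both WT regions and in CF distal lung, and in CF proximal lung without the library that stood apart. AQP1 in WT proximal lung had 8.18 and 5.11 CPM at 65 days, 11.6 and 14.002 at 80 days, 53.6 and 54.8 at 100 days, 93.9 and 95.3 at 120 days and 183 and 128 at term. AQP1 in WT distal lung had 10.995 and 4.28 CPM at 65 days, 10.7 and 15.2 at 80 days, 41.5 and 33.7 at 100 days, 93.4 and 92.1 at 120 days and 181 and 124 at term. From 100 days on, each WT time point lay above the one before in both regions without overlap. In WT proximal lung the step from 80 to 100 days was called, at 2.06 ± 0.22 (SE, adjusted p = 0.00371), and so was that from 120 days to term, at 0.71 ± 0.21 (SE, adjusted p = 0.037). With the WT libraries at 100 days summed, the latter had an adjusted p of 0.059. With all 40 libraries in 1 fit, the former had an adjusted p of 0.345 and the latter 0.614. The former call was lost without replicate 1 at 80 days, with an adjusted p of 0.0561. The latter was lost without either replicate at 100 days, either replicate at 120 days or replicate 1 at term, with adjusted p values of 0.0525 to 0.206. From 65 days to term AQP1 rose by 4.53 ± 0.25 (SE, adjusted p = 3.34e-06) in WT proximal and 4.28 ± 0.42 (SE, adjusted p = 1.14e-04) in WT distal lung. AQP1 in CF proximal lung had 16.95 and 20.3 CPM at 65 days, 10.3 and 18.9 at 80 days, 31.4 and 23.8 at 100 days, 87.9 and 6.22 at 120 days and 129 and 415 at term. AQP1 in CF distal lung had 20.4 and 6.93 CPM at 65 days, 15.9 and 14.8 at 80 days, 23.6 and 26.7 at 100 days, 73.9 and 56.1 at 120 days and 83.4 and 357 at term. In CF at term, replicate 2 was far above replicate 1 in both regions, and at 120 days the proximal replicate that stood apart had 6.22 CPM. From 65 days to term AQP1 rose in CF distal lung, by 4.05 ± 0.69 (SE, adjusted p = 0.00273), and the difference of 3.87 ± 1.10 (SE, adjusted p = 0.0588) in CF proximal lung was not called by edgeR. It was called by DESeq2 (adjusted p = 5.28e-04) and by edgeR with all 40 libraries in 1 fit (adjusted p = 7.44e-04). Without the CF proximal replicate that stood apart, the proximal difference was called, at 3.87 (adjusted p = 0.00332). Over the 40 libraries, AQP1 had r = 0.74 with the summed endothelial markers and 0.79 with the summed alveolar type 1 markers, in points that share library, depth and age.

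AQP3, a channel for water and glycerol, was the lowest of the 3 aquaporins. AQP3 in WT proximal lung had 1.47 and 0.494 CPM at 65 days, 0.830 and 3.77 at 80 days, 3.29 and 2.102 at 100 days, 6.52 and 0.939 at 120 days and 5.67 and 9.79 at term. AQP3 in WT distal lung had 4.46 and 0.384 CPM at 65 days, 1.24 and 4.59 at 80 days, 1.51 and 1.89 at 100 days, 1.82 and 4.64 at 120 days and 7.14 and 23.96 at term. Replicates before term differed widely and their time points overlapped, while both WT distal libraries at term were above all earlier ones. AQP3 in CF proximal lung had 2.16 and 1.63 CPM at 65 days, 3.44 and 6.27 at 80 days, 0.868 and 0.886 at 100 days, 0.945 and 6.29 at 120 days and 2.81 and 5.13 at term. AQP3 in CF distal lung had 1.51 and 0.313 CPM at 65 days, 0.662 and 0.412 at 80 days, 0.917 and 0.508 at 100 days, 1.798 and 1.38 at 120 days and 3.31 and 12.4 at term. Between 65 days and term AQP3 rose in WT proximal lung by 2.96 ± 0.98 (SE, adjusted p = 0.0343) and in CF distal lung by 3.15 ± 0.83 (SE, adjusted p = 0.0199), and DESeq2 called the difference in WT distal lung too (adjusted p = 0.00971). The WT call was lost without either replicate at 65 days or replicate 2 at term, with adjusted p values of 0.0541 to 0.164. The CF call was lost without replicate 2 at 65 days or replicate 2 at term, with adjusted p values of 0.0844 to 0.141. Over the 5 time points edgeR called it in CF distal lung, with an adjusted p of 0.0139, and DESeq2 in both WT courses too. The call was lost without replicate 2 at term, with an adjusted p of 0.14.

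AQP4, the main water channel of airway epithelium, was called in no course by edgeR. AQP4 in WT proximal lung had 51.1 and 2.88 CPM at 65 days, 9.44 and 58.1 at 80 days, 68.3 and 29.2 at 100 days, 62.2 and 17.8 at 120 days and 71.9 and 129 at term. AQP4 in WT distal lung had 124 and 5.16 CPM at 65 days, 15.2 and 57.7 at 80 days, 30.8 and 32.99 at 100 days, 8.34 and 41.5 at 120 days and 63.3 and 96.9 at term. At 65 days WT replicate 1 was high and replicate 2 low in both regions. AQP4 in CF proximal lung had 45.5 and 59.03 CPM at 65 days, 39.5 and 57.8 at 80 days, 11.8 and 7.54 at 100 days, 41.7 and 40.6 at 120 days and 20.5 and 52.4 at term. AQP4 in CF distal lung had 24.7 and 10.5 CPM at 65 days, 12.8 and 11.2 at 80 days, 14.04 and 9.98 at 100 days, 72.5 and 13.2 at 120 days and 21.7 and 84.7 at term. Over the 5 time points its adjusted p was 0.573 in WT proximal, 0.656 in WT distal, 0.101 in CF proximal and 0.111 in CF distal lung. DESeq2 called AQP4 over time in both CF courses.

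**Figure D3:**
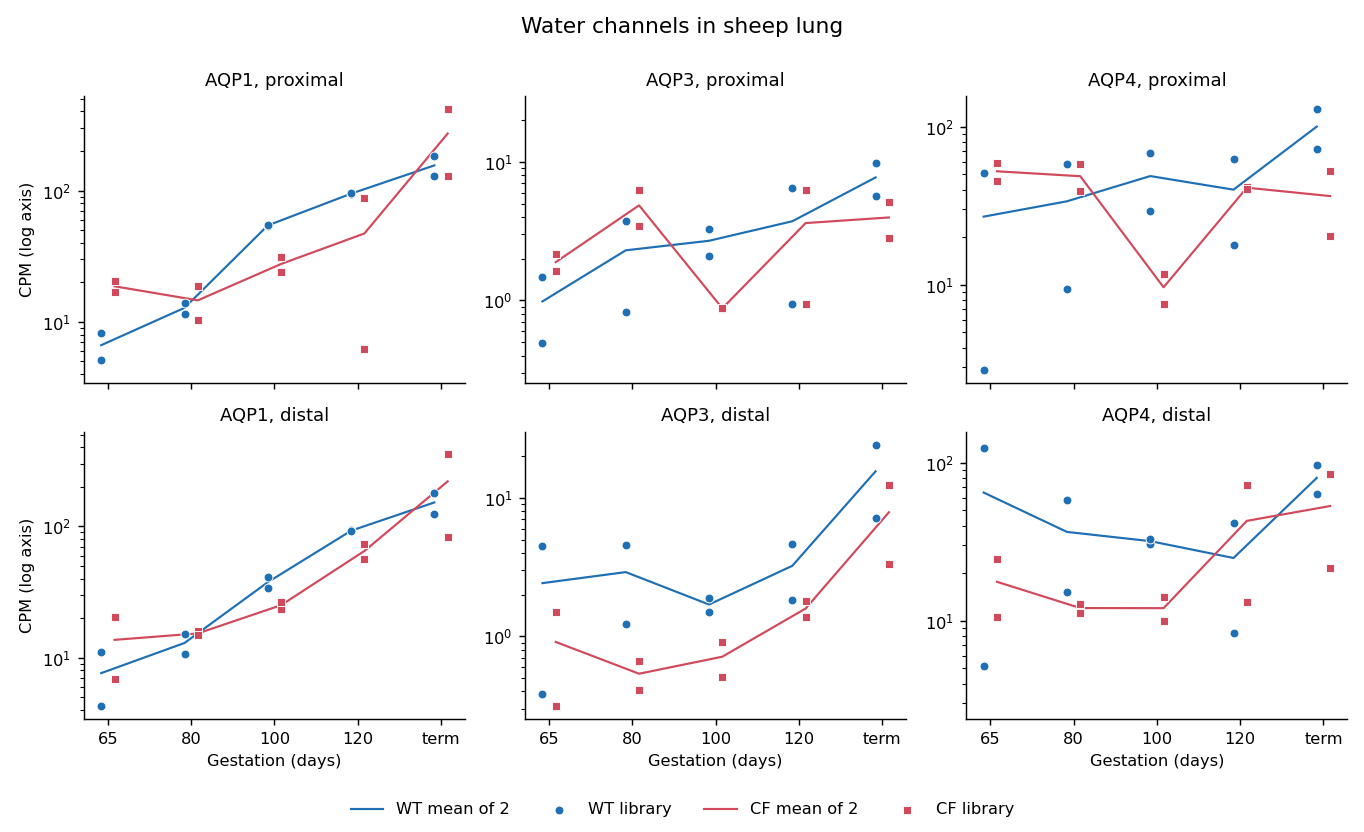
CPM of AQP1, AQP3 and AQP4 (log axis) against gestational age in days, in proximal lung (upper row) and distal lung (lower row), with circles for WT libraries, squares for CF libraries and lines through the means of 2 libraries. AQP1 climbs towards term, while the replicates of AQP3 and AQP4 lie far apart, as in WT distal lung at 65 days, where AQP4 had 124 and 5.16 CPM.

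The spread between the 2 replicates of a condition differed among the 7 genes. For ATP1B1 the median size of the log2 difference between replicates was 0.17 in proximal and 0.12 in distal lung, below the median over all genes of 0.36 in proximal and 0.29 in distal lung. It was 0.44 in proximal and 0.39 in distal lung for SCNN1B, and 0.45 in proximal and 0.46 in distal lung for AQP1. It was 0.65 in proximal and 0.59 in distal lung for SCNN1A, and 0.88 in proximal and 0.55 in distal lung for SCNN1G. AQP3 (0.86 in proximal and 1.54 in distal lung) and AQP4 (1.03 in proximal and 1.58 in distal lung) had wider gaps in distal lung than the other members, with a largest difference of 4.58 for AQP4. Over the 40 libraries AQP3 had r = 0.88 and AQP4 had r = 0.71 with the summed airway secretory and ciliated markers, in points that share library, depth and age. With the summed airway basal markers AQP3 had r = 0.71 and AQP4 had r = 0.70. The secretory and ciliated sum was not particular to these 2 genes: it had r = 0.86 with SCNN1G, 0.83 with SCNN1B and 0.75 with SCNN1A. That sum ran from 16.03 to 3785 CPM before term and from 911 to 5319 CPM at term, and its part in the levels of AQP3 and AQP4 was not tested.

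**Figure D4:**
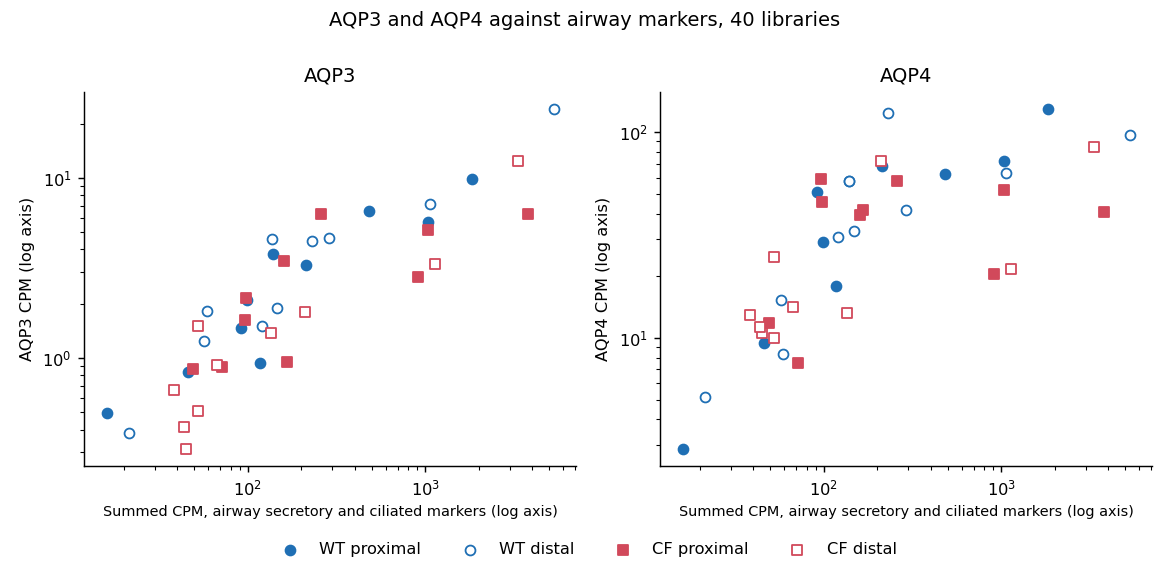
CPM of AQP3 and AQP4 against the summed CPM of 7 airway secretory and ciliated markers in each of the 40 libraries (log axes), with circles for WT and squares for CF. Libraries with more marker RNA had more AQP3 (r = 0.88) and more AQP4 (r = 0.71).

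Between genotypes, ATP1B1 was lower in CF before and at term, and SCNN1B was lower in CF at term. Both CF libraries had less ATP1B1 than both WT libraries in 10 of 10 pairs of region and time point, as did 0.805% of 19880 genes. Averaged over the 4 time points before term, ATP1B1 was -0.90 ± 0.11 (SE, adjusted p = 1.69e-04) in CF relative to WT proximal lung, the 1 member called, where 6.77% of genes were lower. In distal lung it was -0.79 ± 0.08 (SE, adjusted p = 1.07e-05), and 3 members were lower, against 13.6% of genes. The other two were SCNN1B at -0.49 ± 0.15 (SE, adjusted p = 0.0223) and AQP3 at -1.53 ± 0.50 (SE, adjusted p = 0.0311). With counts thinned to equal depth, the ATP1B1 calls were kept and SCNN1B had an adjusted p of 0.0603, and with all 40 libraries in 1 fit it had 0.0729. With the WT libraries at 100 days summed, AQP3 had an adjusted p of 0.0514. The call of SCNN1B was lost without WT replicate 1 at 65 days, WT replicate 2 at 80 days, WT replicate 1 at 100 days, WT replicate 2 at 120 days, CF replicate 2 at 80 days or CF replicate 1 at 100 days, with adjusted p values of 0.0527 to 0.0701. The call of AQP3 was lost without WT replicate 1 at 65 days, WT replicate 2 at 80 days, WT replicate 2 at 100 days, WT replicate 2 at 120 days, CF replicate 2 at 65 days, either CF replicate at 80 days, CF replicate 2 at 100 days or CF replicate 2 at 120 days, with adjusted p values of 0.0501 to 0.179. The distal count was 1 without WT replicate 1 at 65 days, WT replicate 2 at 80 or 120 days or CF replicate 2 at 80 days.

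By time point, ATP1B1 was the 1 member called in proximal lung at 120 days, at -1.48 ± 0.22 (SE, adjusted p = 0.0168), where 0.256% of genes were lower. In distal lung it was the 1 member called at 65 days, at -0.79 ± 0.17 (SE, adjusted p = 0.0145), where 0.866% of genes were lower. It was again the 1 member called there at 100 days, at -0.68 ± 0.17 (SE, adjusted p = 0.0331) (1.34% of genes lower), and at 120 days, at -1.35 ± 0.17 (SE, adjusted p = 0.00113) (1.09%). With the WT libraries at 100 days summed, the distal difference at 100 days had an adjusted p of 0.201, and with all 40 libraries in 1 fit 0.0506. Without the CF proximal replicate that stood apart, the proximal difference of ATP1B1 was -1.16 at 120 days (adjusted p = 0.0224) and -0.83 before term (adjusted p = 3.57e-05). ATP1B1 was then also called in proximal lung at 65 days (adjusted p = 0.0249) and 100 days (adjusted p = 0.0429). The proximal call at 120 days was lost without either WT replicate at 120 days, with adjusted p values of 0.152 to 0.191. The distal call at 65 days was lost without either WT replicate at 65 days or either CF replicate at 65 days, with adjusted p values of 0.0513 to 0.116. That at 100 days was lost without either WT replicate at 80 days, either WT replicate at 100 days or either CF replicate at 100 days, with adjusted p values of 0.0538 to 0.218. At 80 days edgeR called 0 of 7 members in proximal (0.0885% of genes called) and 0 in distal lung (5.92%), with 1 and 2 at an unadjusted p under 0.05, and DESeq2 called 0 and 1, SCNN1B (adjusted p = 0.0299). In proximal lung edgeR called 0 of 7 at 65 days (0.167% of genes) and 0 at 100 days (0.383%), with 1 and 2 at an unadjusted p under 0.05, and DESeq2 called 1 and 0, the former being ATP1B1 (adjusted p = 0.0131), as did edgeR with all 40 libraries in 1 fit (0.0231).

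At term SCNN1B and ATP1B1 were the 2 members called in each region, both lower in CF, where 3.49% of genes in proximal and 7.57% in distal lung were lower. SCNN1B was -2.45 ± 0.46 (SE, adjusted p = 0.0077) in proximal and -2.59 ± 0.31 (SE, adjusted p = 1.82e-04) in distal lung. ATP1B1 was -1.01 ± 0.22 (SE, adjusted p = 0.0165) in proximal and -0.76 ± 0.17 (SE, adjusted p = 0.00826) in distal lung. The proximal count was 1 without WT replicate 2, CF replicate 1 or CF replicate 2 at term. The proximal call of ATP1B1 was lost without WT replicate 2 at term or either CF replicate at term, with adjusted p values of 0.0611 to 0.146. SCNN1A was -1.20 ± 0.70 (SE, adjusted p = 0.373) in proximal and -1.24 ± 0.43 (SE, adjusted p = 0.0632) in distal lung, and neither was called by edgeR. SCNN1G was -1.58 ± 0.70 (SE, adjusted p = 0.226) in proximal and -1.68 ± 0.56 (SE, adjusted p = 0.0552) in distal lung, and neither was called by edgeR. In distal lung both SCNN1A and SCNN1G were called by DESeq2 (adjusted p = 0.0238 and 0.0154) and with counts thinned to equal depth, SCNN1A with replicate number as a block (adjusted p = 0.0282), and SCNN1G with no filter on low counts (adjusted p = 0.0486). AQP1 differed by 0.81 ± 0.78 (SE, adjusted p = 0.625) in proximal and 0.56 ± 0.55 (SE, adjusted p = 0.532) in distal lung. Its CF replicate 2 had 415 CPM in proximal and 357 CPM in distal lung, above all WT libraries at term. CF replicate 1 had 129 CPM in proximal lung, within the WT libraries (128 to 183). In distal lung CF replicate 1 had 83.4 CPM, below them (124 to 181). AQP3 differed by -0.96 ± 0.94 (SE, adjusted p = 0.632) and -0.96 ± 0.97 (SE, adjusted p = 0.543), and AQP4 by -1.46 ± 1.01 (SE, adjusted p = 0.465) and -0.57 ± 1.08 (SE, adjusted p = 0.773), in proximal and distal lung, and no aquaporin was called.

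Whether the change from 120 days to term differed between genotypes was tested by the change in CF minus the change in WT. SCNN1B was the 1 member called in proximal lung, at -3.01 ± 0.63 (SE, adjusted p = 0.0281), where 1.19% of genes had a lower change in CF. It was also the 1 member called in distal lung, at -2.66 ± 0.42 (SE, adjusted p = 0.00238), against 5.1% of genes. Without the CF proximal replicate that stood apart, the proximal value was -2.19 (adjusted p = 0.0332). The proximal call was lost without either WT replicate at 120 days, either WT replicate at term or CF replicate 2 at term, with adjusted p values of 0.0664 to 0.162. The change of SCNN1A differed by -0.66 ± 0.98 (SE, adjusted p = 0.819) in proximal and -1.21 ± 0.60 (SE, adjusted p = 0.22) in distal lung. That of SCNN1G differed by -1.93 ± 0.99 (SE, adjusted p = 0.367) and -2.34 ± 0.80 (SE, adjusted p = 0.0789), and that of ATP1B1 by 0.47 ± 0.31 (SE, adjusted p = 0.502) and 0.58 ± 0.24 (SE, adjusted p = 0.136), and edgeR called none of these. DESeq2 also called SCNN1G in distal lung, at -2.32 (adjusted p = 0.0261). Without the same CF proximal replicate, the proximal values were -1.51 for SCNN1A (adjusted p = 0.209) and 0.12 for ATP1B1 (adjusted p = 0.853).

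**Figure D5:**
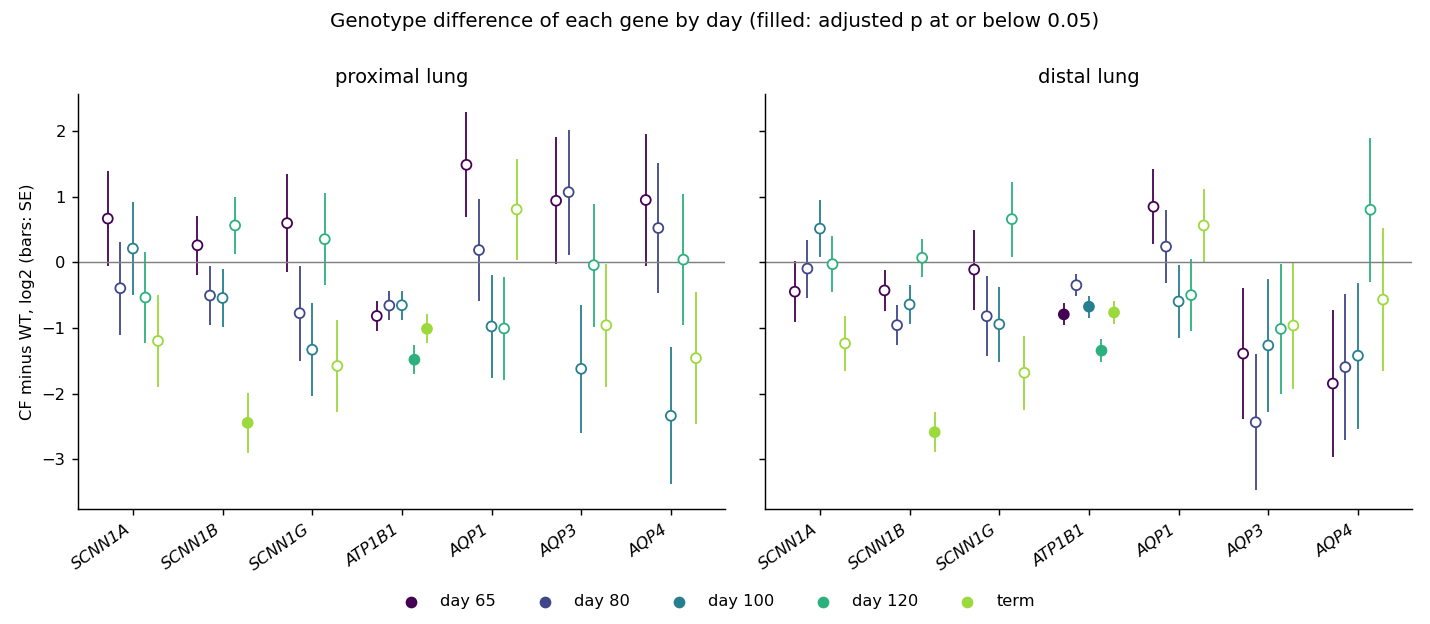
Log2 difference CF minus WT (points) with its SE (bars) for the 7 genes at each gestational age in days, in proximal and distal lung, with filled points where the adjusted p was 0.05 or less. ATP1B1 is below 0 at every time point, and SCNN1B falls away from 0 at term, to -2.45 in proximal and -2.59 in distal lung.

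Markers of cell types moved over the same interval, and their part in these results was not tested. All 8 alveolar type 2 markers rose from 120 days to term in both WT regions, and in CF 0 of 8 rose in proximal and 1 of 8 in distal lung. Over all genes, 13.5% rose in WT proximal, 13.5% in WT distal, 0.0762% in CF proximal and 11.5% in CF distal lung, so that the count of 0 in CF proximal lung is no result about the markers. Their sum at 120 days was 2770.4 to 5274 CPM in WT and 5654 to 19793 CPM in CF, with CF already the higher without overlap. At term it was 15819.5 to 25782 CPM in WT and 6706 to 31558 CPM in CF (n = 4 each), and CF replicate 1 was the higher in both regions. SCNN1B was low in both CF animals, at 37.0 and 54.5 CPM in proximal and 55.6 and 50.2 CPM in distal lung. Of the 7 alveolar type 1 markers, 4 rose in WT proximal, 2 in WT distal, 0 in CF proximal and 1 in CF distal lung, against the same shares. The alveolar type 1 sum was 2267 to 3263 CPM in WT and 2523 to 2953 CPM in CF at 120 days, with overlap. The alveolar type 1 sum at term was 5395 to 6456 CPM in WT and 2141 to 3873 CPM in CF, without overlap. The sum of 9 epithelial markers was 1843 to 2149 CPM in WT and 882 to 1912 CPM in CF at term. At 65 days it was 702 to 895 CPM in WT and 566 to 724 CPM in CF, and at 120 days 894 to 1084 CPM in WT and 781 to 1154 CPM in CF.

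Markers of cells outside the epithelium moved with genotype as well, and their part in the differences of ATP1B1 and SCNN1B was not tested. The 6 smooth muscle markers summed to 307 to 458 CPM in WT and 1049.8 to 1274 CPM in CF at 65 days, and to 411 to 638 CPM in WT and 1044 to 1393 CPM in CF at 120 days. The sums did not overlap between genotypes at any of the 4 time points before term, with CF the higher. At term they were 499.7 to 813 CPM in WT and 216 to 441 CPM in CF, with CF the lower. Averaged over the time points before term, 6 of 6 were higher in CF proximal lung, where 13.8% of all genes were higher, and 5 of 6 in CF distal lung (18.6%). Of the 9 endothelial markers, 4 were higher in CF proximal and 5 in CF distal lung before term. Their sum was 965 to 1151 CPM in WT and 1310.2 to 1492 CPM in CF at 65 days, and 1473 to 2182 CPM in WT and 2225 to 2621 CPM in CF at term. It was higher in CF without overlap at 65 days, at 80 days and at term, and overlapped at 100 and 120 days. Over the 40 libraries ATP1B1 had r = -0.80 with the summed endothelial and r = -0.50 with the summed smooth muscle markers, in points that share library, depth, age and genotype. At term the 9 macrophage and leukocyte markers summed to 765 to 1631 CPM in WT and 242 to 457 CPM in CF, where SCNN1B was also lower in CF. The erythroid sum was 73.6 to 131 CPM in WT and 27.4 to 61.9 CPM in CF at 120 days, and 1.702 to 4.03 CPM in WT and 6.12 to 11.98 CPM in CF at term, without overlap at either time and in opposite directions, and at 100 days it was also lower in CF without overlap. The cartilage sum was 350.0 to 495 CPM in WT and 503 to 595 CPM in CF at 65 days, higher in CF without overlap there and at 80 days.

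Between distal and proximal lung over all conditions, edgeR called 0 of 7 members, with 0 at an unadjusted p under 0.05, DESeq2 called 0, and 0.0193% of all genes were called by edgeR. The largest difference of a member was 0.29 in size on the log2 scale, and with the animal as a block the count was also 0. Within genotypes the differences of the members reached 0.36 in WT and 0.94 in CF in size, and within time points 1.42, at 80 days, with adjusted p values of 0.956 or more. Without the CF proximal replicate that stood apart, the CF value, that of AQP3, was -0.56 in place of -0.94, and AQP3 over all conditions was -0.10 in place of -0.29 (distal minus proximal).

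Over the 40 libraries the log2 levels of the 3 ENaC genes followed each other with r from 0.89 to 0.94. AQP1 followed SCNN1A with r = 0.91 and AQP3 followed AQP4 with r = 0.82, while ATP1B1 had r from -0.30 to -0.06 with the other members. Among 14244 genes, those whose pattern was most like that of SCNN1B were PRDX6 (r = 0.97), NOXO1 (r = 0.97) and CD59 (r = 0.97). The nearest to SCNN1A were CTNS (r = 0.96), EPAS1 (r = 0.96) and F2RL2 (r = 0.96), and the nearest to SCNN1G were CYSTM1 (r = 0.96), LOC101106871 (r = 0.96) and SCNN1B (r = 0.94). ATP1B1 was nearest to LOC101120701 (r = 0.87), STK39 (r = 0.86) and LOC106991655 (r = 0.86), and AQP1 to TNFAIP3 (r = 0.97), FYCO1 (r = 0.95) and CAST (r = 0.95). AQP3 was nearest to UBXN10 (r = 0.94), FANK1 (r = 0.94) and CCDC170 (r = 0.93), and AQP4 to DNAH5 (r = 0.94), MAP3K19 (r = 0.94) and VWA3B (r = 0.93). These are descriptions over libraries that share age, animal and genotype.

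Of the 15 listed genes that regulate ENaC, 8 rose and 1 fell from 120 days to term in WT proximal lung, of 14 tested, with a median log2 change of 0.98 against 0.06 over all genes. In WT distal lung 6 rose and 1 fell of 15 (median 1.42 against 0.04). In CF, 0 rose and 0 fell of 14 in proximal (median 0.40 against -0.12) and 4 rose and 1 fell of 14 in distal lung (median 0.36 against -0.06). Over all genes, 13.5% rose and 11.1% fell in WT proximal, 13.5% rose and 12.3% fell in WT distal, 0.0762% rose and 0.279% fell in CF proximal, and 11.5% rose and 11.5% fell in CF distal lung. SGK1, the kinase that keeps ENaC at the cell surface, had 36.5 and 29.4 CPM at 120 days and 181 and 107 CPM at term in WT proximal lung, and 38.3 and 29.9 and then 150.3 and 74.8 CPM in WT distal lung. In CF it had 33.2 and 20.3 and then 40.3 and 8.33 CPM in proximal lung, and 31.5 and 48.5 and then 32.99 and 9.83 CPM in distal lung. The SGK1 libraries of the genotypes did not overlap at term. SGK1 rose by 2.12 ± 0.26 (SE, adjusted p = 8.76e-04) in WT proximal and 1.70 ± 0.32 (SE, adjusted p = 0.00688) in WT distal lung. At term it was -2.57 ± 0.57 (SE, adjusted p = 0.0171) in CF relative to WT proximal lung and -2.36 ± 0.48 (SE, adjusted p = 0.00515) in distal lung. The change in CF minus that in WT was -2.60 ± 0.65 (SE, adjusted p = 0.025) in distal and -2.26 ± 0.77 (SE, adjusted p = 0.164) in proximal lung, and the latter was not called. NEDD4, a ubiquitin ligase, fell in WT proximal lung, at -1.13 ± 0.17 (SE, adjusted p = 0.00207), in WT distal lung, at -1.28 ± 0.23 (SE, adjusted p = 0.00574), and in CF distal lung, at -0.75 ± 0.24 (SE, adjusted p = 0.0495). NEDD4L, the ligase known to remove ENaC from the membrane, was higher in CF distal lung at term, by 0.93 ± 0.28 (SE, adjusted p = 0.0385), and with the WT libraries at 100 days summed its adjusted p was 0.063. In all, 0 of the 15 regulators were higher and 1 lower in CF proximal lung at term (median -0.12 against -0.03), and 1 higher and 4 lower in distal lung (median -0.34 against 0.00). Over all genes, 2.6% were higher and 3.49% lower in CF proximal, and 7.65% higher and 7.57% lower in CF distal lung.

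Of the 8 other sodium pump genes counted, 3 rose and 1 fell of 6 tested in WT proximal lung from 120 days to term (median 0.44 against 0.06), and 2 rose and 1 fell of 6 in WT distal lung (median 0.60 against 0.04). In CF, 0 rose and 0 fell of 7 in proximal (median 0.12 against -0.12) and 2 rose and 0 fell of 8 in distal lung (median 0.50 against -0.06). The shares of all genes that rose in these courses were 13.5%, 13.5%, 0.0762% and 11.5%, in the same order. Those that fell were 11.1%, 12.3%, 0.279% and 11.5%. ATP1B2, another beta subunit, went from 9.02 and 6.88 to 1.61 and 0.955 CPM in WT proximal lung and fell, at -2.64 ± 0.39 (SE, adjusted p = 0.00204). It fell in WT distal lung too, at -2.58 ± 0.39 (SE, adjusted p = 0.00302), and was higher in CF distal lung at term, by 1.88 ± 0.43 (SE, adjusted p = 0.0101).

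Of the 9 other aquaporins counted, 2 rose and 0 fell of 6 tested in WT proximal lung from 120 days to term (median 0.95 against 0.06), and 2 rose and 0 fell of 7 in WT distal lung (median -0.11 against 0.04). In CF, 0 rose and 0 fell of 9 in proximal (median -0.53 against -0.12) and 2 rose and 1 fell of 9 in distal lung (median 0.44 against -0.06). The shares of all genes that rose in these courses were 13.5%, 13.5%, 0.0762% and 11.5%, in the same order. Those that fell were 11.1%, 12.3%, 0.279% and 11.5%. The genes that rose in WT were AQP9 and AQP5, and AQP5 is named after its values were seen. AQP9, a channel for water and small solutes known from leukocytes, went from 0.411 and 0.0552 to 10.6 and 17.2 CPM in WT proximal lung. AQP5, the apical water channel of alveolar type 1 cells and glands, had 70.5 and 45.6 CPM at 120 days and 226 and 230.5 CPM at term in WT proximal lung, and rose by 1.97 ± 0.28 (SE, adjusted p = 0.0015). Before term AQP5 was higher in CF than in WT proximal lung, by 1.08 ± 0.27 (SE, adjusted p = 0.0129).

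Of the 8 genes of hormone action on sodium absorption, 1 rose and 3 fell in WT proximal lung from 120 days to term (median -0.29 against 0.06), 1 rose and 2 fell in WT distal lung (median -0.11 against 0.04), 0 rose and 0 fell in CF proximal lung (median 0.11 against -0.12), and 0 rose and 1 fell in CF distal lung (median -0.28 against -0.06). The shares of all genes that fell were 11.1%, 12.3%, 0.279% and 11.5%, in the same order. Those that rose were 13.5%, 13.5%, 0.0762% and 11.5%. HSD11B1, which makes active glucocorticoid from its inactive form, had 6.28 and 4.45 CPM at 120 days and 16.7 and 17.3 CPM at term in WT proximal lung, and rose by 1.66 ± 0.28 (SE, adjusted p = 0.00327). It rose in WT distal lung too, by 1.54 ± 0.35 (SE, adjusted p = 0.0135). Before term HSD11B1 was lower in CF, at -0.83 ± 0.16 (SE, adjusted p = 0.00325) in proximal and -0.76 ± 0.19 (SE, adjusted p = 0.00702) in distal lung. NR3C1, the glucocorticoid receptor, fell in WT, at -1.15 ± 0.21 (SE, adjusted p = 0.00514) in proximal and -1.37 ± 0.39 (SE, adjusted p = 0.0321) in distal lung. With the WT libraries at 100 days summed, the call of NR3C1 in distal lung was lost, at an adjusted p of 0.0544.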

How the data were processed

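Total RNA was primed with oligo-dT and sequenced in paired ends of 100 bp. The authors aligned reads to Oar_v4.0 with STAR, version 2.6 per the labels' processing notes and a later version per the study's methods, and counted them per gene with featureCounts 1.6.3, and the deposited values are raw counts. Whether strand was used and how mates were counted is not given in the sources used here. A combined file that repeats the 20 CF columns was not used, and 0 columns belonged to no listed sample.

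The main tests were quasi-likelihood F tests of edgeR 4.0.16, run under R 4.3.3 beside limma 3.58.1. Genes were kept by filterByExpr with a minimum count of 10 and a minimum total of 15, and libraries were scaled by TMM factors. Fold changes had edgeR's default prior count. Log2 levels used for correlations and for differences between replicates had a prior count of 2. Each time course of 10 libraries had a fit of its own, the genotypes were compared in 20 libraries per region, and the regions in all 40. P-values were adjusted by Benjamini-Hochberg over all genes tested, with a threshold of 0.05. Each p-value rests on a spread per gene that is taken over all conditions of a fit and moderated across genes, with 2 libraries per condition. Where both libraries come from 1 animal, their part of it is not between animals. A chi-square of the counts per gene between the WT libraries of 1 label at 100 days was 40.7 in proximal lung. The other WT proximal pairs before term had 26.1 to 50.9. In distal lung it was 6.98, against 19.5 to 60.9.

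Alternatives were DESeq2 1.42.0, all 40 libraries in 1 fit, RLE size factors, no filter, a filter of 1 CPM in 2 libraries, the study's rule (adjusted p of 0.001 and a log2 change of 0.58), the WT libraries at 100 days summed, counts thinned to equal depth (random seed 11), replicate number or animal as a block, and leaving out each library. The fits of the WT proximal course, of the genotypes in proximal lung and of the regions were tested on simulated counts. These had the same spread for every gene and no library that stood apart. The CF courses and the difference of the change were not simulated. Same-numbered libraries were checked for shared deviations, and only distal and proximal libraries pair, by their animal labels. Deviations of these pairs had correlations of -0.09 to 0.63. The fit of all 40 libraries took them as independent. Levels per kb used the summed exon length of Oar_v4.0. The 7 genes and the lists of related genes and markers were chosen with earlier results of these data known. The rule for named genes took the 7 members, CFTR, from each pathway list the called gene with the largest rise and with the largest fall in a comparison, and the 3 genes most correlated with each member over the 40 libraries at an average log2 CPM of 1 or more. Some genes this rule named are not reported here.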

Additional observations from a re-analysis of the deposited data

Results flagged for a closer look

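The change of SCNN1B, the ENaC beta subunit gene, from 120 days to term was smaller in CF than in WT by a test of the difference itself, in both regions. The change in CF minus that in WT was -3.01 ± 0.63 (SE, adjusted p = 0.0281) in proximal lung and -2.66 ± 0.42 (SE, adjusted p = 0.00238) in distal lung on the log2 scale, from 2 libraries per condition. The proximal call was lost without either WT replicate at 120 days, either WT replicate at term or CF replicate 2 at term, with adjusted p values of 0.0664 to 0.162. No other member had a difference of this kind past the threshold by edgeR, and DESeq2 also called SCNN1G in distal lung (adjusted p = 0.0261).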

How the results depend on the processing

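Counts of the 7 members called moved by over 1.5 times under these settings. With the study's stricter rule (adjusted p of 0.001 and a log2 change of 0.58) they were 0 in CF proximal and 3 in CF distal lung over the 5 time points. From 120 days to term they were 1 in WT proximal, 1 in WT distal and 0 in CF distal lung. Between genotypes they were 0 in proximal and 1 in distal lung at term and 1 in distal lung before term, and for the difference of the change 0 in proximal and 0 in distal lung. With DESeq2 they were 6 in CF proximal lung over the 5 time points. From 120 days to term they were 5, 2 and 6 in WT distal, CF proximal and CF distal lung. Between genotypes in distal lung they were 4 at term and 2 for the difference of the change. The share of all genes called moved as well, from 5.36% to 20.5% in CF proximal lung over the 5 time points. From 120 days to term it went from 25.8% to 32.1% in WT distal, 0.356% to 7.01% in CF proximal and 23.0% to 33.8% in CF distal lung. Between genotypes in distal lung it went from 15.2% to 22.8% at term and from 9.31% to 16.3% for the change. With all 40 libraries in 1 fit the counts of members in CF proximal lung were 5 over the 5 time points (28.1% of all genes called) and 4 from 120 days to term (12.4%). With counts thinned to equal depth 4 members were called between genotypes in distal lung at term, where 16.3% of all genes were called. The cause of these shifts was not tested.

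Leaving out 1 library gave 5 to 5 members over the 5 time points in WT proximal, 5 to 6 in WT distal, 0 to 7 in CF proximal and 5 to 7 in CF distal lung. From 120 days to term it gave 4 to 5, 3 to 4, 0 to 3 and 1 to 5 in the same order. Between genotypes it gave 1 to 2 (proximal) and 2 to 4 (distal) at term, 1 to 2 and 1 to 4 before term, and 0 to 3 and 1 to 2 for the change, and between regions 0 to 0. In proximal lung before term 2 were called without CF replicate 1 at 120 days. In distal lung at term 4 were called without either CF replicate at 120 days, and for the change 2 without either WT replicate at 65 days or CF replicate 2 at 120 days. The proximal count for the change was 3 without CF replicate 1 at 120 days. The share of all genes called in fits with 1 library left out is not given beside these counts. SLC26A9, a chloride channel of the lists, had a difference CF minus WT in distal lung at term of -0.14 without CF replicate 1 and 2.38 without CF replicate 2, and so reversed with 1 library.

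Replicate numbers were used as a block, although same-numbered CF and WT libraries had correlations of their deviations of only -0.09 to 0.24, with 3 of 10 over 0.1. Between consecutive days of a course these were -0.40 to 0.62, with 4 of 16 over 0.1. The highest was in CF proximal lung between 100 and 120 days. By the labels the libraries so matched come from different animals, so that they share only a number. With the block, SCNN1A was called in CF distal lung from 120 days to term (1.36) and between genotypes in distal lung at term (-1.26), ATP1B1 was lost in CF proximal lung over the 5 time points (adjusted p = 0.0953), and SCNN1A was lost in WT proximal lung from 100 to 120 days (adjusted p = 0.0765). With the animal as a block between regions no call changed. RLE size factors and the CPM filter moved no count of members by over 1.5 times, although ATP1B1 in CF proximal lung over the 5 time points was not called with RLE size factors (adjusted p = 0.053). Depth limits the ENaC genes at 65 days, where SCNN1G rests on as few as 6 reads.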
